A study of Mus musculus with 30 samples.

Results

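The 6 genes described here are the 4 early growth response (Egr) transcription factors, Egr1, Egr2, Egr3 and Egr4, and the NGFI-A binding (Nab) corepressors Nab1 and Nab2. They were chosen by gene family with earlier results of these data known, and found by symbol; each symbol had 1 row among the 24883 rows of the expression table. Bulk RNA-seq had been made from the dorsal hippocampus of 30 male C57BL/6J mice of wild-type genotype, 6 mice in each of 5 conditions. The study asked how the tyrosine Y397 of CREST (SS18L1), a subunit of the neuronal BAF chromatin remodelling complex, bears on the genes that respond to learning.

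VEH-HC mice received vehicle (the in vivo-jetPEI transfection reagent alone) and were handled but stayed in the home cage. By the study's methods, trained mice had also been habituated to the training chamber on earlier days. Every comparison with VEH-HC thus holds habituation and training together. VEH-T10 and VEH-T3 mice received the same vehicle and were trained in object location memory for 10 min (threshold training) or 3 min (subthreshold training). Y397F-T10 mice received a plasmid for CREST with Y397 changed to phenylalanine and 10 min of training. Y397D-T3 mice received a plasmid for CREST with Y397 changed to aspartic acid and 3 min of training. The sample labels call these phospho-null and phospho-mimetic CREST, and the labels' names are used below. The study could not detect phosphorylation of Y397, treats it as speculation and speaks of point mutants only. Both plasmids carried mouse Crest under a miniCaMK2 promoter, so that the mutant protein was added to the endogenous one in transfected excitatory neurons, and no group received an empty plasmid or wild-type CREST. Infusion took place 3 days before training according to the labels, and all trained mice were taken 1 h after training. No home cage group received either mutant, so the mutants could be compared with vehicle only after training.

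The Egr proteins are zinc finger transcription factors. Their genes are classic immediate-early genes: synaptic activity reaches them through the MAP kinase pathway, which acts on serum response factor (SRF) and its Elk partners, and through CREB. Egr proteins bind GC-rich sites in the promoters of later genes, and Nab1 and Nab2 dock on Egr1, Egr2 and Egr3 and recruit repressors such as the NuRD complex, which closes a feedback loop on Egr activity. Egr4 lacks the Nab docking region. In the hippocampus, Egr1 (also called Zif268) and Egr3 have been tied to long-term potentiation and memory.

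RefSeq promoter windows (250 bases before to 50 after a start site, GRCm38.p6) were at hand for 4 of the 6 genes, in 8 windows. A window each of Egr2 and Egr4, a pair of activity-dependent members, and of Nab1 is shown because it holds letters that match sites of regulators named above. Capitals mark a CArG box (the SRF site), TGACG or its reverse complement CGTCA (the core of the CREB site) and GCGTGGGCG or its reverse complement (the Egr site), searched on both strands.
Egr2, plus strand, chr10:67537619-67537918: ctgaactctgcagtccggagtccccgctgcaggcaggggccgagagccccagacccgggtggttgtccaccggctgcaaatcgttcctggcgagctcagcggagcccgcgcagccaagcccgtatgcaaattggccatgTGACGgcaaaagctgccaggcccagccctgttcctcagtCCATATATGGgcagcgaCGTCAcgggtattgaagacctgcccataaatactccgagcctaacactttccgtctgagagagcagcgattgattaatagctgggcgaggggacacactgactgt
Egr4, minus strand, chr6:85513540-85513839: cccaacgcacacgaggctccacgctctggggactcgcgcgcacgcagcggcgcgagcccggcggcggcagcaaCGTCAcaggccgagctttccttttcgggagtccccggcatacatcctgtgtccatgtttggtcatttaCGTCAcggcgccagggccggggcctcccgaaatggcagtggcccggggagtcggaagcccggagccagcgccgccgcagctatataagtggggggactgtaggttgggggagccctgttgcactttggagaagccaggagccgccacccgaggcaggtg
Nab1, minus strand, chr1:52500399-52500698: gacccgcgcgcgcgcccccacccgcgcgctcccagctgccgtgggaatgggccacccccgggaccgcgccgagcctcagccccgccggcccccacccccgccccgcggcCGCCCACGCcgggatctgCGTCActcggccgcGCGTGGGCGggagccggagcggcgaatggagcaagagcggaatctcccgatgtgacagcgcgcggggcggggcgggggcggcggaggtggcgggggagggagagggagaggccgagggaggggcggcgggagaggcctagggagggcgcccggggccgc

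In the printed Egr2 window a CArG box began at -72 from the start site, flanked by CREB cores that began at -111 and -55. Among the other Egr2 windows, the one that begins at chr10:67537316 held a CArG box alone and the one at chr10:67535249 held no match. A CArG box was present in 1.63% and TGACG in 20.8% of all 32851 RefSeq windows. The Egr4 window held such cores that began at -177 and -109, and no CArG box in these letters. The Nab1 window held 2 Egr sites, which began at -141 and -109 on opposite strands, and 1 CREB core at -123, whereas 0.612% of all windows held an Egr site. None of the 4 motif searches matched in the Nab2 window (chr10:127666654-127666953, minus strand), and the full CREB site TGACGTCA, held by 1.79% of all windows, was in none of the 8. These matches describe letters and were not tested as binding sites.

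The study had also chosen the Egr2 promoter for a chromatin immunoprecipitation assay. Its primers are shown because they place the stretch that was assayed; a capital marks a base that differs from the reference.
Forward primer: cccataaatactccgagcctaac
Reverse primer: ggagGtgctggtgtagtgtt
The forward primer matched chr10:67537836-67537858 without a mismatch, within the window printed above. The reverse primer lay at chr10:67537925-67537944 with 1 mismatch, G5T (the primer's base, its position from the primer's 5′ end and the base of the reference read on the same strand). Together they span 109 bases across the start site of the printed window, downstream of the CArG box. The Egr2 windows that begin at chr10:67537620 and chr10:67537680 also have their start sites within this span, so the primers do not single out 1 of them.

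In GENCODE M21 (GRCm38), Egr2 lies at chr10:67535475-67542188 on the plus strand with 7 transcripts and Egr3 at chr14:70077203-70082614 on the plus strand with 4. Egr4 lies at chr6:85511121-85513589 on the minus strand with 1 transcript, Nab1 at chr1:52457294-52500679 on the minus strand with 5 and Nab2 at chr10:127660918-127668568 on the minus strand with 4. No stretch of 50 bases was shared between the annotated transcripts of any 2 of the 6 genes. Exons of Nab2 overlap those of Stat6 by 40 bases, of Nemp1 by 151 and of the antisense RNA Gm16229 by 1050, all on the opposite strand. Whether the reads were assigned by strand is not given in the sources used here, so reads of Nab2 and its opposite-strand neighbours may not be separable.

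Values are FPKM (fragments per kilobase of exon model, scaled to the mapped total), a level per length that allows genes to be set side by side. Judged by the steps between the lowest values of 183 rarely expressed genes, libraries held about 17800000 to 27300000 fragments, with condition medians from 21300000 (VEH-T3) to 24300000 (VEH-HC). Comparisons were fitted with limma on log2(FPKM + 1) over the 13184 rows with a mean of at least 1 FPKM, and p-values were adjusted by the Benjamini-Hochberg method over all of them. All 6 genes passed that filter. A fold change on this scale understates the change of a low gene such as Egr2, and labels do not say whether mice of a condition shared a litter or day.

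The dissected tissue held hippocampal neurons in all conditions: Fibcd1, a marker of CA1 pyramidal neurons, averaged from 34.1 to 39.9 FPKM, and Prox1, which marks dentate granule cells, from 9.96 to 13.6 FPKM. Dentate gyrus was thus present beside the CA1 field for which the study names the tissue. Markers of choroid plexus and thalamus, which border the hippocampus, varied among mice. Their mean log2(FPKM + 1) was lower in each trained condition than in VEH-HC. It was 2.66 to 4.33 against 5.33 for choroid plexus and 1.94 to 2.15 against 2.38 for thalamus. Mean FPKM was not lower for every marker: the most abundant, Ttr, averaged 3167 FPKM in VEH-T3 against 3097 in VEH-HC. The summed level of 6 choroid plexus markers was 918 to 5607 FPKM in VEH-HC mice, and 10.4 to 4477 (VEH-T10), 28.8 to 10415 (Y397F-T10), 29.9 to 12801 (VEH-T3) and 14.2 to 2842 FPKM (Y397D-T3) in trained mice. The summed level of 4 thalamus markers was 19.4 to 30.4 FPKM in VEH-HC mice, and 10.6 to 26.1 (VEH-T10), 7.59 to 23.1 (Y397F-T10), 13.4 to 43.4 (VEH-T3) and 11.9 to 24.8 FPKM (Y397D-T3) in trained mice. All markers of both lists were in the table, and none was at 0 in any mouse. Slc17a6, which defines thalamic glutamatergic neurons, averaged 4.39 ± 0.629 FPKM (SD, n = 6) in VEH-HC against means of 1.49 to 2.49 in the trained conditions. It differed most of the thalamus markers. Lef1 averaged 2.26 FPKM in VEH-HC against 1.61 to 2.15, Tcf7l2 1.51 against 0.952 to 1.42, and Prkcd 16.5 against 14.3 to 18.3. The mean log2(FPKM + 1) of 4 deep cortex markers was 2.95 in VEH-HC and 2.76 to 2.86 in the trained conditions, with Ctgf at 4.57 against 1.93 to 3.08 FPKM, although the summed level of the 4 was not lower (medians of 54.1 against 57.2 to 60.3 FPKM). The mean log2 level of 5 dentate granule markers was 3.54 in VEH-HC, 3.49 to 3.72 in the other trained conditions and 3.82 in Y397D-T3. By mean FPKM, Tdo2 alone of these was highest in Y397D-T3. Prox1, Dsp and Lct were highest in VEH-T3 and C1ql2 in Y397F-T10. The mean log2 level of 5 CA1 markers ran from 4.66 to 4.82 and was also highest in Y397D-T3. Crest itself (Ss18l1) averaged 12.6 ± 0.920 FPKM in Y397F-T10 against 12.01 ± 1.18 in VEH-T10, and 13.5 ± 0.471 in Y397D-T3 against 12.9 ± 1.08 in VEH-T3 (SD, n = 6), with adjusted p = 1.00 and 0.786 by limma, so that the plasmids could not be seen in total Crest RNA.

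Over the 30 libraries Egr1 was the most abundant member, at 49.7 FPKM on average, followed by Egr3 (31.8), Egr4 (20.7), Nab2 (19.6), Nab1 (6.00) and Egr2 (1.13). Egr1, Egr3 and Egr4 ran from 14.3 to 67.6 FPKM and were thus readily measured in every mouse, home cage mice included. Egr2 never exceeded 1.86 FPKM. Nab2 exceeded Nab1 in every mouse, with a ratio of Nab2 to Nab1 FPKM between 2.47 and 4.47.

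**Figure D1:**
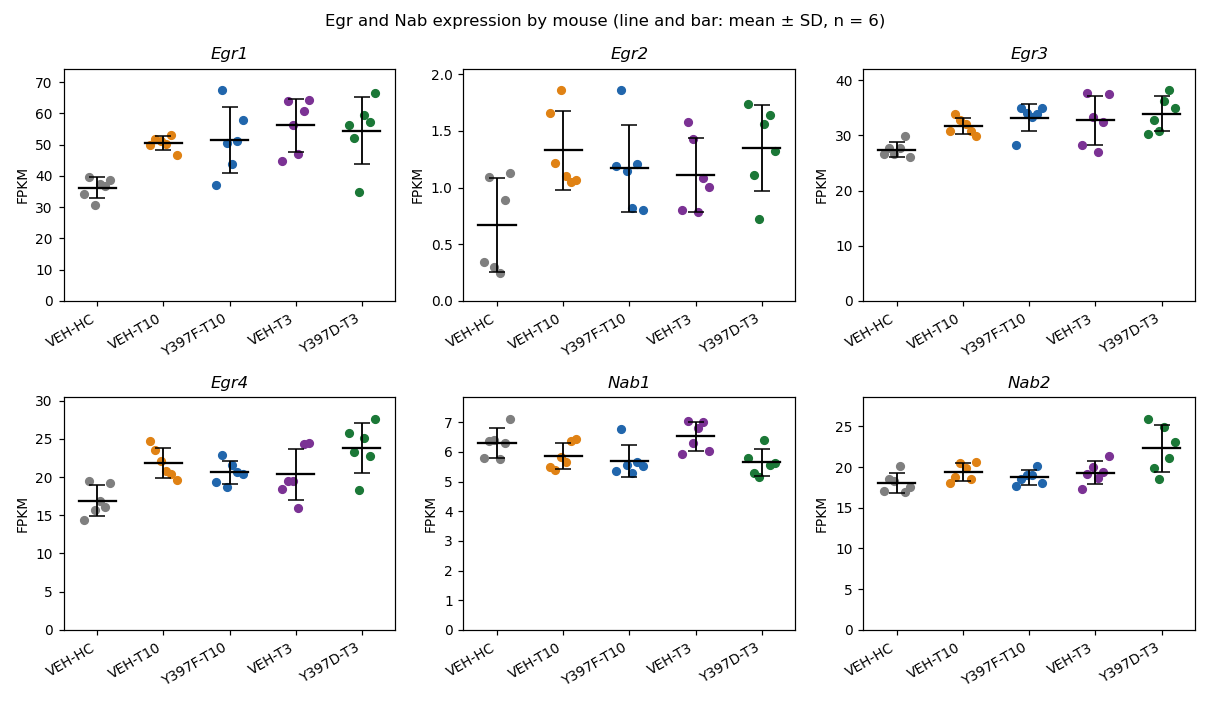
FPKM of the 6 genes in each mouse, with 1 panel per gene and 1 point per mouse; the line is the mean and the bar the SD (n = 6 mice per condition), and each axis starts at 0. Mean Egr1 ran from 50.5 to 56.1 FPKM in the trained conditions against 36.3 in VEH-HC, Egr2 split into low and high mice in VEH-HC, and mean Nab2 was highest in Y397D-T3 at 22.3 FPKM.

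The first comparison set vehicle mice after habituation and threshold training against vehicle mice of the home cage. Egr1, Egr3 and Egr4 were each higher in every VEH-T10 mouse than in any VEH-HC mouse, yet 0 of the 6 members passed the adjusted threshold. Across all tested genes 0.319% were called higher and 0.501% lower, and 0.789% were higher without overlap of the 2 conditions. Of all calls 38.9% were higher, and 71.7% were higher once each library was centred on its median.

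Egr1 lay between 30.8 and 39.7 FPKM in VEH-HC (median 37.1) and between 46.6 and 53.1 in VEH-T10 (median 50.7). The VEH-T10 mean of 50.5 ± 2.22 FPKM was 39.2% above the VEH-HC mean of 36.3 ± 3.29 (SD, n = 6), a log2 fold change of 0.47 (SE 0.125) with a limma adjusted p of 0.0651. Spread among VEH-T10 mice was narrow, with a coefficient of variation of 4.40%, against 15.05 to 20.6% in the other trained conditions.

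Egr4, the member that acts without Nab proteins, lay between 14.3 and 19.5 FPKM in VEH-HC (median 16.5) and between 19.7 and 24.7 in VEH-T10 (median 21.5). Its log2 fold change was 0.35 (SE 0.0940) with a limma adjusted p of 0.0637. Egr3, which shares binding sites with Egr1, differed less: 26.1 to 29.9 FPKM in VEH-HC (median 27.1) against 29.9 to 33.9 in VEH-T10 (median 31.4), a log2 fold change of 0.20 (SE 0.0700; adjusted p = 0.148). The lowest VEH-T10 mouse, at 29.90 FPKM, stood just above the highest VEH-HC mouse, at 29.89. A limma fit restricted to these 12 libraries called all 3, and with them 2.43% of all tested genes in either direction, against 0.819% in the fit of all libraries.

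Egr2, best known for its role in myelinating glia and also induced in neurons, had 3 VEH-HC mice at 0.247, 0.30 and 0.342 FPKM and the other 3 at 0.887, 1.10 and 1.13. On a transcript of 2965 bases, the low values correspond to an estimated 17 to 27 fragments and the high values to 65 to 83. VEH-T10 mice ran from 1.05 to 1.86 FPKM (median 1.16), of which 3 exceeded all VEH-HC mice. The log2 fold change was 0.51 (SE 0.149) with a limma adjusted p of 0.0915.

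The corepressors differed little. Nab1 averaged 5.86 ± 0.445 FPKM in VEH-T10 and 6.30 ± 0.496 in VEH-HC (adjusted p = 0.516), and Nab2 19.4 ± 1.08 and 18.1 ± 1.23 (SD, n = 6; limma adjusted p = 0.504). The 95% confidence interval of the log2 fold change ran from -0.21 to 0.03 for Nab1 and from -0.03 to 0.23 for Nab2.

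Subthreshold training was compared with the same VEH-HC mice, which all 4 comparisons with the home cage share. Egr1 and Egr3 were called higher in VEH-T3, 2 of the 6 members, where 2.23% of all tested genes were called higher and 2.94% lower. Of these calls 43.2% were higher, or 70.1% with each library centred on its median. Egr1 ran from 44.8 to 64.2 FPKM in VEH-T3 (median 58.5), above every VEH-HC mouse; 0.675% of all tested genes were higher without overlap. Its mean of 56.1 ± 8.44 FPKM (SD, n = 6) was 54.7% above VEH-HC, with a log2 fold change of 0.61 (SE 0.125) and a limma adjusted p of 0.0104.

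VEH-T3 mice fell into a lower and a higher set for Egr3. Values were 27.0 and 28.2 FPKM in 2 mice, within the VEH-HC range, and from 32.4 to 37.7 in the other 4. The log2 fold change of 0.24 (SE 0.0700; limma adjusted p = 0.0461) was lost on leaving out any of 8 of the 12 mice, in fits where 1.18 to 4.93% of all tested genes were called against 5.17% with all mice. With only the 12 libraries in the fit Egr1 was lost as well, as was every other gene: limma called 0% of the 13184, of which 2519 had a raw p under 0.05. Egr4 ran from 15.997 to 24.5 FPKM (median 19.5; log2 fold change 0.25, adjusted p = 0.118) and Egr2 from 0.787 to 1.57 (median 1.04; log2 fold change 0.37, adjusted p = 0.144), and both overlapped with VEH-HC. Nab1 at 6.52 ± 0.492 FPKM and Nab2 at 19.3 ± 1.37 (SD, n = 6) had limma adjusted p of 0.733 and 0.441.

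Training length was then compared directly in vehicle mice. No member was called between VEH-T10 and VEH-T3, where 0% of tested genes were called higher and 0.0455% lower (481 and 594 had a raw p under 0.05). Without adjustment Nab1 was the 1 member under 0.05: it was lower in VEH-T10, with 5.40 to 6.44 FPKM (median 5.74), than in VEH-T3, with 5.94 to 7.05 (median 6.56), a log2 fold change of -0.13 with an exact permutation p of 0.0390 and a limma adjusted p of 0.592. The 95% confidence interval for Egr1 ran from -0.39 to 0.12 and for Egr4 from -0.08 to 0.30, so differences of these sizes in either direction were not resolved. Although Egr1 and Egr3 passed against VEH-HC after 3 min and not after 10 min, the direct test thus gave no difference between the training lengths.

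Phospho-null CREST was examined after threshold training. None of the 6 members was called in Y397F-T10 against VEH-HC, where 0.47% of all genes were called higher, 0.66% lower and 0.554% were higher without overlap. Higher genes made up 41.6% of calls, or 71.4% with libraries centred. Without adjustment 5 members had p under 0.05, as had 16.9% of all tested genes (725 higher and 1507 lower). Egr1 spanned 37.2 to 67.6 FPKM (median 50.9), and its lowest mouse, replicate 1, lay within the VEH-HC range. The log2 fold change of Egr1 was 0.47 (SE 0.125; limma adjusted p = 0.0573) and that of Egr3 0.27 (SE 0.0700; adjusted p = 0.0570). The same mouse was the lowest for Egr3, at 28.3 FPKM, while the other 5 ran from 33.3 to 34.9. Without this mouse both genes were called, and the share of all tested genes called went from 1.13 to 3.05%.

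Egr4 at 18.8 to 22.9 FPKM (median 20.5) and Egr2 at 0.798 to 1.86 (median 1.17) had limma adjusted p of 0.137 and 0.165. Nab1 averaged 5.69 ± 0.542 FPKM, below the VEH-HC mean of 6.30 ± 0.496 by a log2 fold change of -0.13 (adjusted p = 0.272), and Nab2 averaged 18.7 ± 0.881 (SD, n = 6; adjusted p = 0.751).

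Against VEH-T10, phospho-null CREST was accompanied by no called member, and 0% of all tested genes passed in either direction (256 higher and 242 lower genes had a raw p under 0.05). The ranges of the 2 conditions overlapped for all 6 genes. Egr1 differed by a log2 fold change of 0.00 (95% confidence interval -0.26 to 0.26), Egr3 by 0.06 (-0.08 to 0.21), Egr4 by -0.08 (-0.27 to 0.11) and Egr2 by -0.11 (-0.41 to 0.20), with limma adjusted p of 1.00 for each. For the corepressors it was -0.04 (-0.16 to 0.08) for Nab1 and -0.05 (-0.18 to 0.08) for Nab2. These intervals leave room for changes of Egr1 by up to 0.26 in either direction.

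Phospho-mimetic CREST with subthreshold training gave the most calls. All 4 Egr genes and Nab2 were higher in Y397D-T3 than in VEH-HC, 5 of the 6 members, where 3.91% of all tested genes were called higher and 3.16% lower. Higher genes were 55.3% of calls, or 73.6% with libraries centred. The same 5 members were called with the choroid plexus marker level as a covariate, where 3.62% of all genes were called in either direction, and with the thalamus marker level, where 13.5% were, against 7.07% without a covariate. Both marker levels themselves differed between Y397D-T3 and VEH-HC (mean log2 of 2.66 against 5.33 and 1.94 against 2.38). These fits therefore cannot separate tissue content from condition. Egr1 ran from 35.0 to 66.5 FPKM (median 56.8) and 5 of the 6 mice exceeded all VEH-HC mice, with replicate 3 inside the VEH-HC range. Its log2 fold change was 0.55 (SE 0.125; limma adjusted p = 0.00870).

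Egr4 had the smallest adjusted p of the 6 in this comparison. It ran from 18.3 to 27.7 FPKM (median 24.2), with a mean of 23.8 ± 3.23 (SD, n = 6) that was 40.6% above VEH-HC, a log2 fold change of 0.46 (SE 0.0940) and a limma adjusted p of 0.00414. Only replicate 3 overlapped with the home cage range. Egr3 ran from 30.3 to 38.3 FPKM (median 33.9), above every VEH-HC mouse, a separation that 2.5% of all tested genes showed; its log2 fold change was 0.29 (SE 0.0700; adjusted p = 0.0126).

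Egr2 ran from 0.724 to 1.73 FPKM (median 1.44), and its mean of 1.35 ± 0.382 was 2.02 times that of VEH-HC, 0.667 ± 0.415 (SD, n = 6). The log2 fold change of 0.52 (SE 0.149; limma adjusted p = 0.0340) was lost on leaving out any of 7 of the 12 mice, in fits that called 3.68 to 7.99% of all genes. Replicate 3 was the lowest of its condition for Egr1, Egr2 and Egr4, and also for Nab1 and Nab2, but not for Egr3.

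Nab2, the corepressor that Egr factors themselves induce, was called in this comparison and in no other. It ran from 16.9 to 20.2 FPKM in VEH-HC (median 17.9) and from 18.6 to 26.0 in Y397D-T3 (median 22.2), with 4 of 6 mice above all VEH-HC mice. The mean of 22.3 ± 2.90 against 18.1 ± 1.23 FPKM (SD, n = 6) gave a log2 fold change of 0.28 (SE 0.0630; limma adjusted p = 0.00825). Reads of the opposite-strand genes named above may be included in these values, and their part was not tested. Nab1 went the other way without passing, from 5.76 to 7.12 FPKM in VEH-HC (median 6.34) to 5.15 to 6.41 in Y397D-T3 (median 5.60; log2 fold change -0.13, adjusted p = 0.151).

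**Figure D2:**
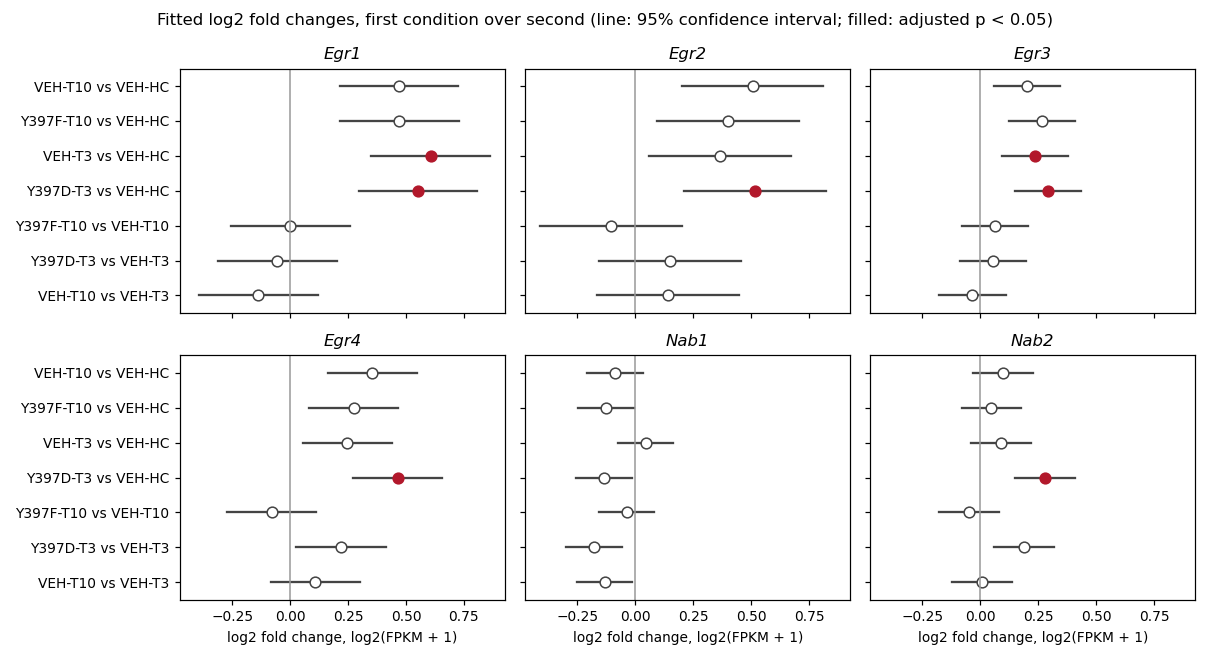
Fitted log2 fold changes of log2(FPKM + 1) for the 6 genes (panels) in the 7 comparisons (rows), first condition over second; lines are 95% confidence intervals and filled points have an adjusted p under 0.05. Egr1 and Egr3 passed in VEH-T3 and, with Egr2, Egr4 and Nab2, in Y397D-T3 against VEH-HC, and no member passed in the 3 comparisons between trained conditions.

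At equal training, Y397D-T3 against VEH-T3, no member was called. Vehicle mice received no plasmid, so this comparison cannot separate plasmid delivery or added CREST from the point mutation. Across all rows 0% of genes were called higher and 0.00758% lower, which is 1 gene (679 and 358 had a raw p under 0.05). The members with an unadjusted p under 0.05 were Nab1, Nab2 and Egr4. All 6 Y397D-T3 mice had less Nab1 than the VEH-T3 median, and 5 had less than any VEH-T3 mouse. The log2 fold change of Nab1 was -0.18 (SE 0.0588), that of Nab2 0.19 (SE 0.0630) and that of Egr4 0.22 (SE 0.0940), with two-sided exact permutation p of 0.0130, 0.0563 and 0.121. Their limma adjusted p were 0.520, 0.520 and 0.597. Egr1 differed by -0.06 (95% confidence interval -0.31 to 0.20), Egr2 by 0.15 (-0.16 to 0.46) and Egr3 by 0.05 (-0.09 to 0.20).

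The corepressor pair was also set against itself within each mouse, a measure chosen after its values were seen and given as a description. The ratio of Nab2 to Nab1 FPKM lay between 3.61 and 4.47 in Y397D-T3 (median 3.85). In the other conditions it lay between 2.47 and 3.51 (VEH-HC), 2.91 and 3.53 (VEH-T10), 2.73 and 3.599 (Y397F-T10) and 2.71 and 3.55 (VEH-T3). Every Y397D-T3 mouse thus stood above all mice of the other conditions, replicate 3 included, by a narrow margin (3.61 against 3.599). How often the ratio of 2 other genes separates a condition in this way was not counted. Nab1 also ran with the neighbouring tissues: its level correlated with the mean log2 level of the choroid plexus markers at r = 0.54 and of the thalamus markers at r = 0.60 over the 30 mice, and at 0.44 and 0.45 within conditions, where Egr1 and the thalamus markers gave 0.57. These are descriptions over mice that share a dissection, and the ratio was not fitted with a covariate. The Nab1 log2 fold change of Y397D-T3 over VEH-HC, -0.13, was -0.08 with the choroid plexus and -0.02 with the thalamus level as a covariate, and that of VEH-T10 over VEH-HC, -0.09, was -0.04 and 0.03. Y397D-T3 over VEH-T3 gave -0.14 and -0.12 in place of -0.18. Nab1 was called in none of these fits.

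Over all 5 conditions at once, limma's F test called Egr1 (adjusted p = 0.0243) and Egr4 (0.0341), 2 of the 6 members, among 2.64% of all genes. Nab2 (0.0567), Egr3 (0.0629), Egr2 (0.130) and Nab1 (0.158) did not pass. The number of members called ranged from 0 to 4 on leaving out 1 mouse: 0 were called without VEH-HC replicate 1, 3, 4 or 5, 1 without VEH-HC replicate 2 or Y397D-T3 replicate 4, 5 or 6, and 4 without VEH-T3 replicate 1. The share of all genes called by the F test ranged from 1.07 to 5.2% over these fits and was 5.2% without VEH-T3 replicate 1.

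Mice that had more of 1 Egr gene tended to have more of the others. Over the 30 mice all 6 pairs of Egr genes were correlated, with Pearson's r of log2(FPKM + 1) from 0.58 (Egr2 and Egr3) to 0.81 (Egr1 and Egr3), and 10 of the 15 pairs of members had an adjusted permutation p under 0.05. Egr1 and Egr3 gave r = 0.81, Spearman's rho = 0.82 and an adjusted permutation p of 5e-05 (raw p = 1e-05, the smallest that 100000 permutations can give), and r = 0.77 without the 2 mice farthest from the Egr1 median. Egr1 and Egr4 gave r = 0.77, rho = 0.76, the same adjusted permutation p of 5e-05, and r = 0.69 without the 2 farthest mice.

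Because the conditions differ in level, the pairs were also correlated after removal of each condition's mean, with permutation within conditions. Of the 6 Egr pairs 4 remained under 0.05. The within-condition r was 0.69 for Egr1 and Egr4 (adjusted permutation p = 0.00135), 0.68 for Egr1 and Egr3 (0.00210), 0.55 for Egr1 and Egr2 (0.00930) and 0.54 for Egr2 and Egr4 (0.0171). For Egr3 and Egr4 it was 0.43, and for Egr2 and Egr3 0.34, both with an adjusted permutation p of 0.0914.

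Markers of cell types and neighbouring tissue ran with some of these genes within conditions, given as descriptions over the 30 mice. For Egr1 and Egr3 the within-condition r was -0.56 and -0.54 with the deep cortex markers, 0.56 and 0.48 with microglia, 0.52 and 0.48 with astrocytes, and 0.42 and 0.60 with dentate granule cells. For Egr2 and Egr4 the r with these 4 lists lay between -0.35 and 0.15. The part of tissue content in the correlations among Egr genes was not tested.

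Nab2 followed the Egr genes across all mice, with r = 0.65 for Egr4 and Nab2 (rho = 0.60, adjusted permutation p = 0.000150; r = 0.57 without the 2 farthest mice) and r = 0.54 for Egr1 and Nab2 (rho = 0.55, adjusted permutation p = 0.00375; r = 0.50 without the 2 farthest). Within conditions these were 0.46 (adjusted permutation p = 0.0539) and 0.49 (0.0414). For both pairs r was above 0 in 4 conditions but -0.59 and -0.52 in VEH-T10. Nab2 with Egr2 and with Egr3 gave r = 0.43 and 0.46 across all mice (adjusted permutation p = 0.0278 and 0.0179). Within conditions they gave 0.24 and 0.27 (adjusted permutation p = 0.276 and 0.252). Nab1 showed no relation to the Egr genes across all mice: its r ran from -0.17 (Egr4) to 0.14 (Egr1). Within conditions, however, r was 0.51 with Egr2 (adjusted permutation p = 0.0230) and 0.48 with Egr1 (0.0400). Of the 7 pairs under 0.05 within conditions, 4 remained with libraries centred on their medians, and all 4 were pairs of Egr genes. The median of a library and its Egr1 level correlated at r = 0.49 within conditions, given as a description.

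**Figure D3:**
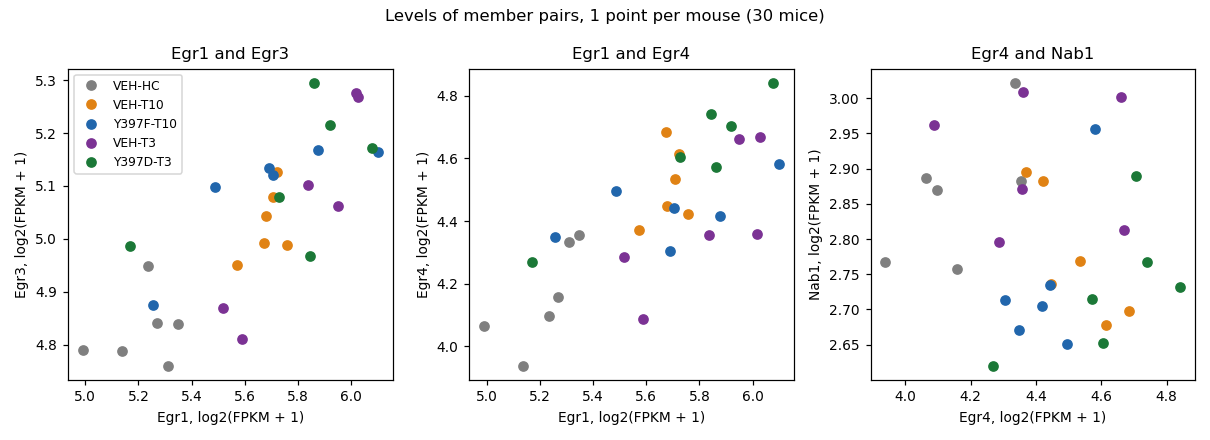
log2(FPKM + 1) of Egr3 against Egr1, Egr4 against Egr1 and Nab1 against Egr4, with 1 point per mouse (30 mice) coloured by condition. Egr3 and Egr4 increased with Egr1 (r = 0.81 and 0.77), and Nab1 and Egr4 showed no overall relation (r = -0.17).

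The genes whose levels ran most like each member over the 30 mice were named by the highest r among 13178 other tested genes, as a description without a test. For Egr1 they were Dusp6, a phosphatase that switches off ERK (r = 0.80), the retinoic acid receptor Rara (0.79) and the immediate-early gene Fos (0.76). Fos was also the closest to Egr2 (r = 0.78, then Uhrf2 at 0.71 and Prdm15 at 0.70) and to Egr4 (0.73, then Junb and Dusp6, both at 0.73). Egr3 ran with Gse1 (r = 0.83), Dagla, which makes the endocannabinoid 2-arachidonoylglycerol (0.79), and Sipa1l3 (0.79). Nab2 ran with Klf10, another early zinc finger gene (r = 0.82, and 0.81 within conditions), Rps6kl1 (0.81) and Tmem198 (0.80), and Nab1 with Wrn (0.72), the actin regulator Cfl2 (0.71) and the cholesterol transporter Npc1 (0.71).

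Upstream, a list of 17 regulators of Egr transcription (SRF and its Elk and MRTF partners, the ERK cascade, CREB and its relatives) was tested in full. Mapk3, which encodes the kinase ERK1, was lower in all 4 trained conditions: 107 ± 8.93 FPKM in VEH-HC against 88.1 to 91.5 on average, with log2 fold changes from -0.28 to -0.23 and limma adjusted p from 0.0155 to 0.0468. It was the only gene of the list called in VEH-T10 and in Y397F-T10. In VEH-T3, Elk4, Creb1 and Braf were higher, with log2 fold changes of 0.35 (adjusted p = 0.0110), 0.23 (0.0171) and 0.20 (0.0149). In Y397D-T3, Elk4 (0.38; adjusted p = 0.00278), Elk1 (0.31; 0.0162) and Srf (0.19; 0.0150) were higher. Of the 17 genes, 3 were thus called higher and 1 lower in VEH-T3 and in Y397D-T3, where 5.17% and 7.07% of all tested genes were called. In VEH-T10 and Y397F-T10 1 was called, beside 0.819% and 1.13% of all.

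Srf, the factor known to bind CArG boxes, averaged 21.0 ± 1.06 FPKM in Y397D-T3 against 18.3 ± 0.802 in VEH-HC and 18.8 ± 1.64 in VEH-T3 (SD, n = 6). All 6 Y397D-T3 mice exceeded the median of either group, but the difference from VEH-T3 had a limma adjusted p of 0.504. The median log2 fold change of the 17 genes against VEH-HC was 0.04 after 10 min of training with either vehicle or Y397F, 0.00 in VEH-T3 and 0.08 in Y397D-T3, beside -0.04 to -0.03 over all tested genes.

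Downstream, 15 of 19 genes described as Egr targets in other settings were tested. Their median log2 fold change against VEH-HC lay between -0.09 and -0.05. Arc, a synaptic immediate-early gene that Egr1 and Egr3 bind, was higher in Y397D-T3 at 54.1 ± 14.7 FPKM against 37.4 ± 6.10 in VEH-HC (SD, n = 6; log2 fold change 0.49, limma adjusted p = 0.0397). It averaged 40.8 ± 5.02 FPKM in VEH-T10 (adjusted p = 0.739), 33.1 ± 2.90 in Y397F-T10 (0.617) and 42.9 ± 8.28 in VEH-T3 (0.508). Ache, which encodes acetylcholinesterase, was lower in VEH-T3 (log2 fold change -0.33, adjusted p = 0.0126), and no other gene of the list was called. All 13 NuRD subunits were tested, and Gatad2b alone was called: it was higher in VEH-T3 (log2 fold change 0.49, adjusted p = 0.00980) and in Y397D-T3 (0.46, adjusted p = 0.00698). Over all tested genes 5.17% were called in either direction in VEH-T3 and 7.07% in Y397D-T3. A single call among 15 targets or 13 subunits is near those shares.

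The 20 other activity-induced genes, all tested, were mixed. Homer1, whose short form is an immediate-early product that loosens synaptic scaffolds, was higher in all 4 comparisons with VEH-HC, from 16.1 ± 1.15 FPKM in VEH-HC to means of 21.9 to 23.5 (log2 fold change 0.42 to 0.51, limma adjusted p 0.00147 to 0.00959). The nuclear receptor Nr4a3 was higher in VEH-T10, VEH-T3 and Y397D-T3, and Fosb in VEH-T10, Y397F-T10 and Y397D-T3. In Y397D-T3, 6 of the 20 were called higher (Arc, Dusp6, Fosb, Homer1, Nr4a1 and Nr4a3), where 3.91% of all tested genes were. The counts were 3 in VEH-T10 (0.319% of all genes), 3 in VEH-T3 (2.23%) and 2 in Y397F-T10 (0.47%), and the differences between these counts were not tested. Dusp1, which dephosphorylates MAP kinases, was the 1 called lower, in Y397F-T10 (log2 fold change -0.44, adjusted p = 0.0358). Fos, the gene most like Egr2 and Egr4, averaged 7.44 ± 0.864 FPKM in VEH-T10 against 4.96 ± 1.23 in VEH-HC (log2 fold change 0.52, adjusted p = 0.0658) and 6.42 to 6.93 in the other trained conditions.

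**Figure D4:**
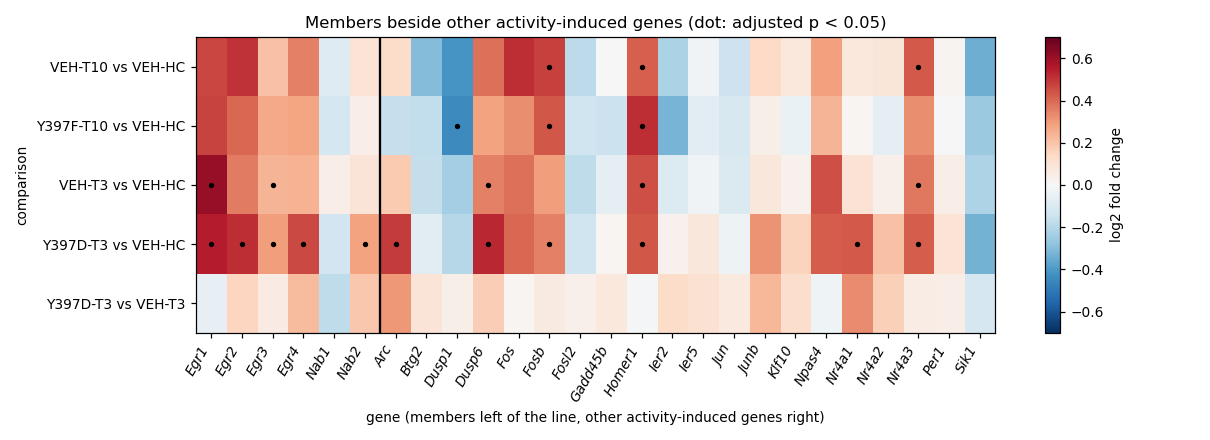
Log2 fold changes of log2(FPKM + 1) as colours (red higher, blue lower in the first condition) for the 6 members and 20 other activity-induced genes in the 4 comparisons with VEH-HC and in Y397D-T3 against VEH-T3; dots mark adjusted p under 0.05. Homer1 was called in all 4 comparisons with VEH-HC, 5 of the 6 members were called in Y397D-T3, and none of these genes was called between Y397D-T3 and VEH-T3.

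In bulk tissue, fewer expressing cells and less RNA per cell cannot be told apart, and the values above describe the whole dissected piece. By mean log2 level, choroid plexus, thalamus and deep cortex markers were lower in the trained conditions than in VEH-HC, as given above. Among the deep cortex markers Ctgf and Foxp2 were lower, Tle4 was level and Hs3st4 was higher. The mean log2 level of the dentate markers was highest in Y397D-T3, although most of its genes were not. The part of choroid plexus and thalamus in the differences from VEH-HC was examined in the covariate fits alone, which cannot separate it from condition. That of deep cortex and dentate gyrus was not tested. In VEH-T10, 4 members were called with the thalamus marker level as a covariate, together with 19.7% of all tested genes against 0.819% without it, and 0 with the choroid plexus level (0.356%).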

How the data were processed

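RNA from the dorsal hippocampus of 30 mice, 6 per condition, had been sequenced in paired ends on NovaSeq and HiSeq machines; which library ran on which is not given in the sources used here. The authors aligned reads to mm10 with TopHat2 2.1.1 and computed FPKM per gene with Cufflinks 2.2.1, and the deposited table holds these FPKM values as 1 column per mouse. FPKM removes depth, so per-library depth was estimated from the value that 1 fragment takes in 183 low, single-transcript genes of 3000 to 8000 bases (mean under 0.1 FPKM), a method tested on simulated data. It ignores effective length and is approximate.

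Conditions came from the sample titles. The 7 comparisons and an F test were fitted with limma 3.58.1 in R 4.3.3 on log2(FPKM + 1), with all 30 libraries, a trended prior and rows of mean FPKM of at least 1. The fit was tested on simulated data: among 13184 genes with changes added to VEH-T10 against VEH-HC, 38% of changes of 0.25 and 76% of 0.5 (log2) were called. Permutation tests were two-sided, and correlations used 100000 permutations (numpy 2.4.6). Motifs were searched in RefSeq windows.

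The members and the gene lists were chosen with earlier results of these data known. Named genes were the 6 members, for each the 3 genes with the highest r, and up to 4 called genes per list and comparison, with Arc, Fos and Srf in any case. Alternatives were a pseudocount of 0.1, no filter, median centring, only the 12 libraries compared, a replicate block, summed rows per symbol, unadjusted p, leaving out each library and, added after the data were seen, choroid plexus or thalamus markers as a covariate. Replicate numbers were not treated as pairs, since the labels name no pairing.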

Additional observations from a re-analysis of the deposited data

Results flagged for a closer look

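Among the 30 sets of 6 mice (6 genes in 5 conditions), 2 held a mouse whose distance from its nearest neighbour took up an unusually large part of the range by Dixon's criterion, which chance meets in about 1 in 20 sets. In Y397F-T10 the lowest mouse for Egr3, replicate 1, stood at 28.3 FPKM against 33.3 for the next and 34.9 for the highest, a gap of 0.747 of the range. In the same condition the highest mouse for Nab1, replicate 2, stood at 6.76 FPKM against 5.66 for the next and 5.28 for the lowest, a gap of 0.748 of the range.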

How the results depend on the processing

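Calls in VEH-T10, VEH-T3 and Y397F-T10 against VEH-HC depended on the fit, and those in Y397D-T3 held in number; the share of all genes called in either direction, given after each count, moved as well. In VEH-T10 (0 members, 0.819% of genes) the count was 1 with libraries centred (Egr1; 0.349%), 3 with only the 12 libraries (Egr1, Egr3, Egr4; 2.43%), 4 with the thalamus covariate (19.7%) and 4 at unadjusted p (14.9%). In Y397F-T10 (0 members, 1.13%) it was 1 with the choroid plexus covariate (Egr1; 1.85%), 3 with the thalamus covariate (17.5%) and 5 at unadjusted p (16.9%). In VEH-T3 (2 members, 5.17%) it was 1 without the filter (Egr1; 2.8%), 0 with only the 12 libraries (0%) and 4 at unadjusted p (21.6%). In Y397D-T3 (5 members, 7.07%) every alternative gave 4 to 6 members; Egr2 was lost with only the 12 libraries (14%). At unadjusted p, 3 members passed in Y397D-T3 against VEH-T3 (7.87%), 1 in VEH-T10 against VEH-T3 (8.15%) and 6 in the F test (19%), which gave 4 with libraries centred (2.12%) and 4 with the thalamus covariate (13.2%), against 2 in the fit as reported (2.64%). Causes were not tested.

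Leaving out 1 mouse at a time gave 0 to 0 members in VEH-T10, 0 to 2 in Y397F-T10 (2 only without Y397F-T10 replicate 1), 1 to 2 in VEH-T3 and 4 to 5 in Y397D-T3, each against VEH-HC, and 0 to 4 in the F test. Egr1 stayed called in VEH-T3 and in Y397D-T3 throughout. Egr3 in VEH-T3 was lost without VEH-HC replicate 1, 2, 3, 4 or 6 or VEH-T3 replicate 2, 3 or 6. Egr2 in Y397D-T3 was lost without VEH-HC replicate 1, 3 or 4 or Y397D-T3 replicate 1, 4, 5 or 6.

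With the replicate number as a block, 1 member was called in VEH-T10 (Egr1; 1.23% of genes), 2 in Y397F-T10 (Egr1, Egr3; 1.33%), 2 in VEH-T3 (5.63%), 5 in Y397D-T3 (7.88%), 0 between trained conditions and 3 in the F test (2.41%). Same-numbered mice deviated together at a mean r from -0.11 to 0.21, and 8 of 30 correlated best with their own number. These values cannot tell whether same-numbered mice shared a day or batch, which the labels do not give.

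Over 882 fold changes of single members under the alternatives, 832 kept their direction and side of the threshold, 19 lost and 28 gained a call, 3 uncalled ones changed sign by more than 1 SE and no called one did. The pairs of members correlated (10) were 9 with a pseudocount of 0.1 and 10 with libraries centred. Depth limits Egr2, for which the lowest library held an estimated 17 fragments.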
